A study of Mus musculus with 16 samples.

Results

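Chemokines are small secreted proteins that steer moving cells, and the genes described here are the chemokine ligands and receptors of the mouse that were measured in 3 types of induced brain tumor and in normal brain. A gene was included if its symbol starts with Ccl, Cxcl, Ccr or Cxcr followed by a number, or if it is Cx3cl1 or Xcr1, and if a probe set of its own measured it. This gave 50 genes, 33 ligands and 17 receptors, of 19938 genes measured. PDGF+p53-/- tumors come from floxed p53 mice given a retrovirus, PDGF-IRES-Cre, that carries PDGF-B together with Cre recombinase. The same virus in mice with floxed p53 and floxed RBPjk gave PDGF+p53-/-RBPjk-/- tumors, in which the DNA-binding effector of Notch signaling was removed as well. In p53-/-RBPjk-/- tumors a Hes5::CreERT2 transgene, active in neural stem cells, deleted p53 and RBPjk, and PDGF-B was not overexpressed. Control brain tissue was normal brain, labelled wild type for PDGF-B, p53 and RBPjk. Each group has 4 arrays, and the labels give no age and do not say that the arrays are separate animals, so a p-value here measures only how these samples spread, part of which may be technical. All 3 tumor types lack p53, and both RBPjk-/- types differ from each other in virus, PDGF-B and Cre source at once. Tumors were found by a green fluorescent reporter and dissected from mice with symptoms, and each sample may include brain and blood cells of the host.

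A chemokine binds a membrane receptor on a leukocyte, glial cell or neuron, and the receptor signals through an inhibitory G protein so that the cell moves up the gradient. CC ligands such as Ccl2 mostly draw monocytes and other mononuclear cells. CXC ligands draw neutrophils or, when induced by interferon, T cells and NK cells. In the healthy brain, Cx3cl1 on neurons and its receptor on microglia, and Cxcl12 with Cxcr4, are the best known pairs, while most inflammatory ligands are low.

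The values are log2 expression values, so a difference of 1 is 2-fold, and levels of different genes on an array cannot be set against each other. The neuron list (12 genes) had a mean of 7.07 to 8.78 in PDGF+p53-/- tumors, 6.84 to 8.27 in PDGF+p53-/-RBPjk-/- tumors and 6.11 to 7.54 in p53-/-RBPjk-/- tumors, against 10.50 to 10.55 in control brain tissue. The list of 10 oligodendrocyte precursor genes ran the other way, from 9.08 to 9.85 over all tumors against 7.30 to 7.45 in control. PDGF+p53-/- replicate 3 stood apart from the other tumors, at -8.8 on the first principal component (56.9% of the variance) with the other tumors between 13.2 and 40.3 and control between -76.6 and -73.2. Its neuron mean was the 8.78 given above. Rbpj averaged 7.73 ± 0.15 in PDGF+p53-/-RBPjk-/- tumors and 7.78 ± 0.12 in p53-/-RBPjk-/- tumors, against 8.32 ± 0.16 in PDGF+p53-/- tumors and 8.01 ± 0.20 in control (SD, n = 4 each). Its difference of -0.53 between p53-/-RBPjk-/- and PDGF+p53-/- tumors passed (adjusted p = 0.0191), that of -0.59 between the PDGF types did not (0.269), and whether its probes lie in the deleted part was not tested. Pdgfb was called in no comparison, and whether its probe set reads the viral transcript was not tested. Xist was high in 4 of 4 p53-/-RBPjk-/- arrays, in 1 of 4 arrays of each PDGF type and in 2 of 4 control arrays.

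Ccl2, a CC ligand that attracts monocytes, was higher in each tumor type than in control, and further monocyte-attracting ligands were higher in the PDGF types, whereas Cx3cl1, Cxcl12 and Ccl17 were lower in each tumor type. In PDGF+p53-/- tumors 11 of the 50 genes rose and 4 fell at an adjusted p under 0.05. Over all genes 31.1% were called in that comparison, 13.6% higher and 17.6% lower. In PDGF+p53-/-RBPjk-/- tumors 9 rose and 3 fell, where 33.6% of all genes were called (15.7% higher, 17.9% lower). With each array centred on 10 housekeeping genes, 6 rose and 4 fell in PDGF+p53-/- tumors, and 6 rose and 5 fell in PDGF+p53-/-RBPjk-/- tumors. In p53-/-RBPjk-/- tumors 5 rose and 3 fell, where 36.8% of all genes were called (16.4% higher, 20.4% lower). With quantile normalization repeated, 4 rose and 4 fell there. The share of chemokine genes called was thus near or below that of all genes in each comparison, and the median difference of the 50 genes was 0.13, 0.11 and 0.10 in the 3 tumor types in that order, beside medians of -0.04, -0.03 and -0.02 over all genes. Because the 3 comparisons share the control arrays, their calls are not independent.

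**Figure D1:**
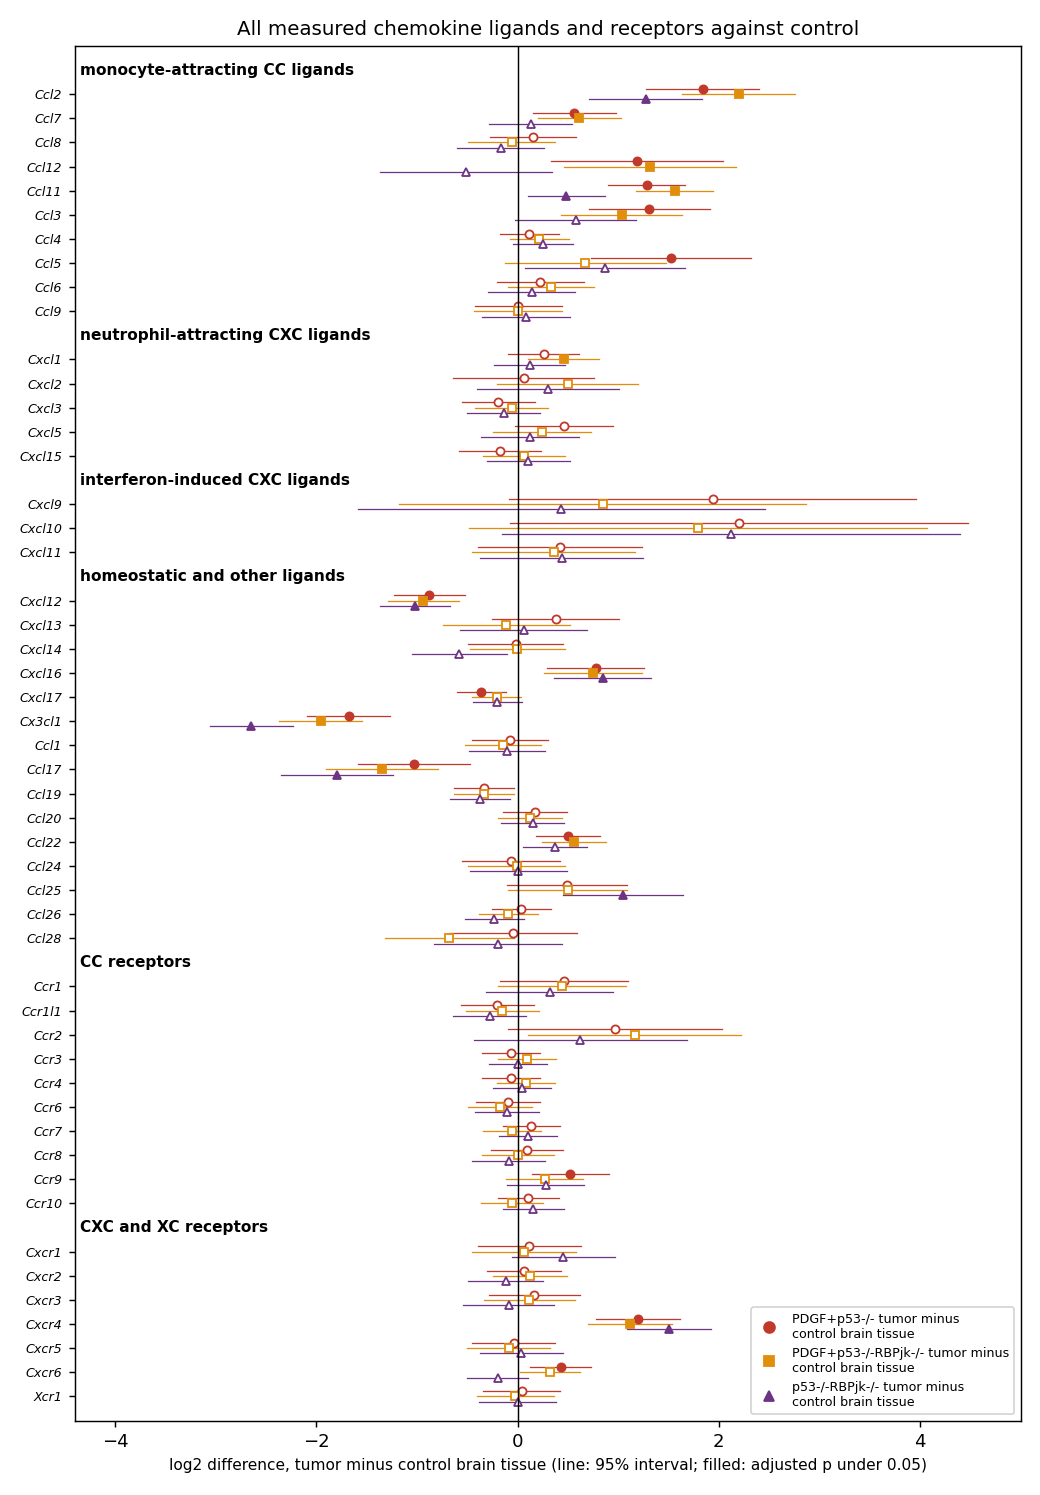
Log2 difference from control brain tissue of each of the 50 genes (rows, grouped by role) in PDGF+p53-/- tumors (red circles), PDGF+p53-/-RBPjk-/- tumors (orange squares) and p53-/-RBPjk-/- tumors (purple triangles), with 95% intervals as lines and filled symbols where the adjusted p is under 0.05. Calls to the right gather among monocyte-attracting ligands, where Ccl2 reaches 2.20, and the calls farthest to the left belong to Cx3cl1, which reaches -2.65.

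The genes called in common over tumor types are listed here, and the share of all genes called in common was not computed beside them. The calls that ended with housekeeping centring are Ccl7, Ccl12, Ccl22, Ccr9 and Cxcr6 in PDGF+p53-/- tumors, Ccl7, Cxcl1 and Cxcl16 in PDGF+p53-/-RBPjk-/- tumors and Ccl11 in p53-/-RBPjk-/- tumors. Ccl2, Ccl11, Cxcl16 and Cxcr4 rose in all 3 types, though the Ccl11 call in p53-/-RBPjk-/- tumors ended under most alternatives, and Ccl17, Cx3cl1 and Cxcl12 fell in all 3. Ccl3, Ccl7, Ccl12 and Ccl22 rose in both PDGF types. Only 1 type gave a call for Ccl5, Ccr9, Cxcr6 and Cxcl17 (PDGF+p53-/-, with Cxcl17 lower), Cxcl1 (PDGF+p53-/-RBPjk-/-) and Ccl25 (p53-/-RBPjk-/-). The other 33 genes were called in none of the 6 comparisons made, and 19 of the 50 had a mean under 5, below the median gene's 6.29. The median 95% interval of a chemokine gene, before adjustment over all genes, reached 0.41 to either side with 4 arrays a group. Smaller differences were thus mostly not detectable. Some larger ones did not pass the adjusted threshold either, so 0.41 is no bound for a gene that was not called.

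The monocyte-attracting CC ligands hold 10 genes, of which 6, 5 and 2 rose in PDGF+p53-/-, PDGF+p53-/-RBPjk-/- and p53-/-RBPjk-/- tumors, and none fell. Their median difference was 0.88, 0.65 and 0.20 in that order, and the 2 of 10 in p53-/-RBPjk-/- tumors lie near the share of all genes called higher there. Ccl11, a ligand of the eosinophil receptor Ccr3, is counted in this group and among the genes that rose in each type. Ccl2, the main ligand of the monocyte receptor Ccr2, gave 7.85, 7.69, 7.29 and 8.42 in the 4 PDGF+p53-/- arrays. In PDGF+p53-/-RBPjk-/- arrays Ccl2 was at 8.17, 7.52, 8.06 and 8.93, in p53-/-RBPjk-/- arrays at 6.79, 7.55, 7.41 and 7.24, and in control arrays at 5.64, 5.93, 6.29 and 6.02. Every tumor array lay above every control array. The rise was 1.84 ± 0.27 (log2 difference ± SE, adjusted p = 3.66e-05), 2.20 ± 0.27 (4.79e-06) and 1.28 ± 0.27 (0.000887) in the 3 types, which is 3.59-fold, 4.59-fold and 2.42-fold. In bulk tissue more cells that make a transcript and more transcript per cell cannot be told apart.

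Ccl2 lies on chromosome 11 in a row of 6 chemokine genes, Ccl2, Ccl7, Ccl11, Ccl12, Ccl8 and Ccl1, with no other protein-coding gene between them. Other kinds of genes were not looked at for such rows. Ccl11, also called eotaxin and a ligand of the eosinophil receptor Ccr3, was at 7.56, 6.49, 7.23 and 7.09 in PDGF+p53-/- arrays. Its values were 7.37, 7.41, 7.44 and 7.27 in PDGF+p53-/-RBPjk-/- arrays and 6.58, 5.99, 6.40 and 6.20 in p53-/-RBPjk-/- arrays, against 5.82, 5.58, 5.90 and 5.93 in control arrays. No tumor array overlapped control, and the p53-/-RBPjk-/- arrays lay nearest to it. Ccl11 rose by 1.29 ± 0.18 (adjusted p = 2.82e-05), 1.56 ± 0.18 (2.95e-06) and 0.48 ± 0.18 (0.0446). The last call ended without any 1 of 12 of the 16 arrays (control replicates 1 to 4, PDGF+p53-/- replicate 4, PDGF+p53-/-RBPjk-/- replicates 1 to 4 and p53-/-RBPjk-/- replicates 1, 3 and 4), with a difference of 0.39 to 0.52 and an adjusted p of 0.0517 to 0.134. It also ended with a sex term (0.35, 0.184), array weights (0.44, 0.0675), every probe set tested (0.0631), quantile normalization repeated (0.0553) and housekeeping centring (0.0826), so it ended under 17 of 26 alternatives.

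Ccl12, a mouse ligand of Ccr2 that is close to Ccl2, differed between tumor types more than any other monocyte-attracting ligand. It gave 9.05, 8.52, 8.91 and 9.75 in PDGF+p53-/- arrays and 9.68, 8.65, 8.92 and 9.49 in PDGF+p53-/-RBPjk-/- arrays. Ccl12 in p53-/-RBPjk-/- arrays gave 6.65, 7.40, 7.48 and 7.87, and in control arrays 7.86, 9.28, 7.51 and 6.82. Control replicate 2 alone reached into the range of both PDGF types, and the p53-/-RBPjk-/- arrays stayed within the range of control or just under it. Ccl12 rose by 1.19 ± 0.41 (adjusted p = 0.0325) in PDGF+p53-/- and by 1.32 ± 0.41 (0.0175) in PDGF+p53-/-RBPjk-/- tumors, and the difference was -0.51 ± 0.41 (0.363) in p53-/-RBPjk-/- tumors. The call in PDGF+p53-/- tumors ended without control replicate 1, 3 or 4 or without PDGF+p53-/- replicate 1 or 4 (adjusted p between 0.0609 and 0.128). It ended under 11 of 26 alternatives, among them a sex term (0.0572), only the 2 groups in the fit (0.0598) and every probe set tested (0.0573). The call in PDGF+p53-/-RBPjk-/- tumors ended without control replicate 3 or 4 or without PDGF+p53-/-RBPjk-/- replicate 1 (0.0532 to 0.0729).

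The promoter of Ccl12 is shown because this gene gave the largest differences between tumor types among the monocyte-attracting ligands. It is the 250 bases upstream of the gene's start in RefSeq (GRCm38.p6), chr11:82101595-82101844, plus strand, 5′ to 3′, and neither motif searched (described with Cxcl10) is in it.
Ccl12: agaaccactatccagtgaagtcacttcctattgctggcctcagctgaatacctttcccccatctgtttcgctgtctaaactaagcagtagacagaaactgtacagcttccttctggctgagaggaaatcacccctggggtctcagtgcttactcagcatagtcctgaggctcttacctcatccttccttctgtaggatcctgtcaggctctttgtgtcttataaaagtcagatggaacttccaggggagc

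Ccl7, which also signals through Ccr2, rose by 0.56 ± 0.20 (adjusted p = 0.0354) in PDGF+p53-/- and by 0.62 ± 0.20 (0.0209) in PDGF+p53-/-RBPjk-/- tumors, and differed by 0.13 ± 0.20 (0.654) in p53-/-RBPjk-/- tumors. The call in PDGF+p53-/- tumors ended on leaving out control replicate 2, control replicate 4, PDGF+p53-/- replicate 1 or PDGF+p53-/- replicate 4 (adjusted p 0.0543 to 0.129). The call in PDGF+p53-/-RBPjk-/- tumors ended without control replicate 4 or PDGF+p53-/-RBPjk-/- replicate 1 or 2 (0.0642 to 0.0735). These calls ended under 7 and 4 of 26 alternatives in that order. Ccl8, the fifth gene of the row, and Ccl1, the last, passed in no comparison.

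A second row on chromosome 11 holds Ccl5, Ccl9, Ccl6, Ccl3 and Ccl4. Ccl3, a ligand of Ccr1 that microglia and macrophages make, gave 7.10, 7.22, 7.14 and 8.43 in PDGF+p53-/- arrays and 7.02, 7.26, 7.15 and 7.38 in PDGF+p53-/-RBPjk-/- arrays. It gave 6.20, 6.76, 7.40 and 6.61 in p53-/-RBPjk-/- arrays, against 5.89, 6.68, 5.79 and 6.30 in control arrays. Both PDGF types lay above control, while p53-/-RBPjk-/- arrays overlapped it. Ccl3 rose by 1.31 ± 0.28 (adjusted p = 0.00168) and 1.04 ± 0.28 (0.00845) in the PDGF types, and differed by 0.58 ± 0.28 (0.13) in p53-/-RBPjk-/- tumors.

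Ccl5, which T cells, NK cells and glia make and which draws T cells and monocytes, was at 8.83, 7.91, 7.89 and 9.10 in PDGF+p53-/- arrays. Its values were 8.66, 6.85, 6.88 and 7.94 in PDGF+p53-/-RBPjk-/- arrays and 7.33, 8.64, 7.55 and 7.57 in p53-/-RBPjk-/- arrays, against 7.24, 6.68, 7.01 and 6.69 in control arrays. PDGF+p53-/- and p53-/-RBPjk-/- arrays lay above all control arrays, and a pair of PDGF+p53-/-RBPjk-/- arrays did not. Ccl5 rose by 1.53 ± 0.38 (adjusted p = 0.0046) in PDGF+p53-/- tumors, and the differences of 0.67 ± 0.38 (0.199) and 0.87 ± 0.38 (0.0839) in PDGF+p53-/-RBPjk-/- and p53-/-RBPjk-/- tumors did not pass. Without PDGF+p53-/-RBPjk-/- replicate 1 the p53-/-RBPjk-/- difference passed (0.0464). Ccl4, Ccl6 and Ccl9, the other genes of that row, passed in no comparison.

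**Figure D2:**
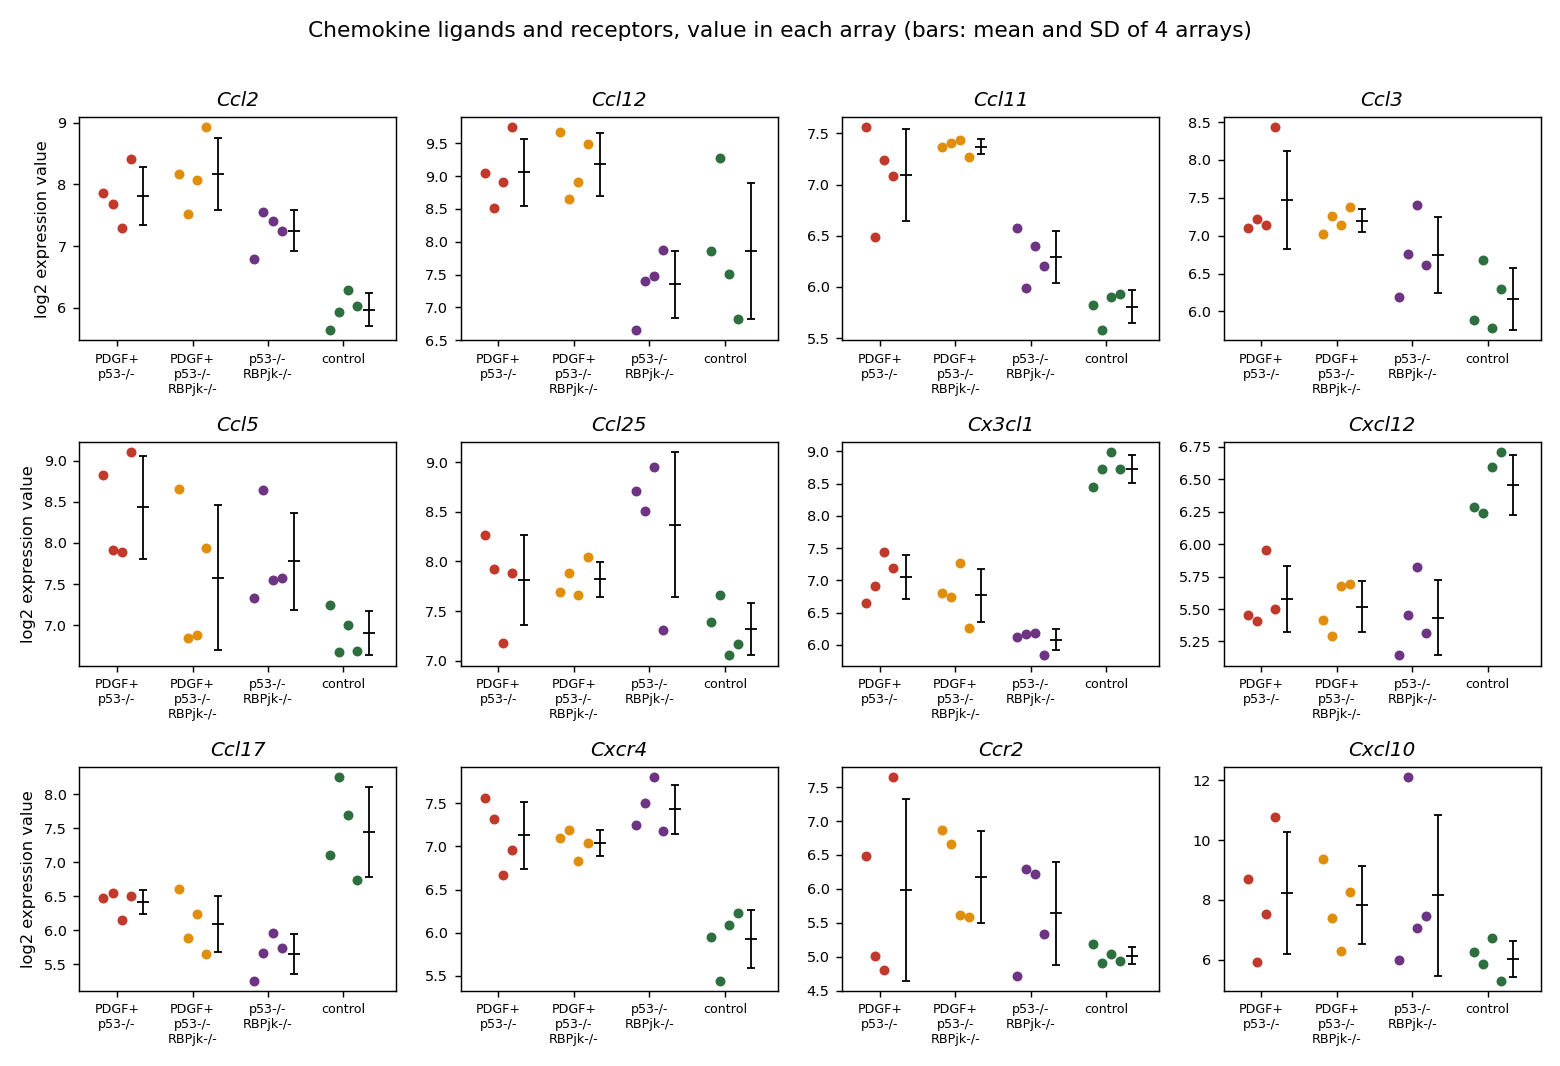
Log2 expression value of 12 chemokine genes in each array (dots), with the mean and SD of the 4 arrays as a bar beside them, in PDGF+p53-/-, PDGF+p53-/-RBPjk-/- and p53-/-RBPjk-/- tumors and in control. All tumor arrays lie above control for Ccl2, Ccl11 and Cxcr4 and below control for Cx3cl1, Cxcl12 and Ccl17, and Cxcl10 spreads from 5.93 to 12.09 among tumor arrays.

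Markers of the cells that make or answer these ligands moved in part. Of 11 monocyte and macrophage markers, 3, 4 and 4 rose in the 3 types in the same order and 1 fell in each, among them Lyz2 (lysozyme) at 1.75, 1.80 and 2.76. The mean of that list was 5.49 to 6.81 in PDGF+p53-/-, 6.0 to 6.52 in PDGF+p53-/-RBPjk-/- and 6.13 to 7.12 in p53-/-RBPjk-/- arrays, against 5.58 to 5.66 in control arrays. Of 11 microglia markers 1 rose and 2, 2 and 6 fell, and the mean of that list was 6.41 to 6.68, 6.41 to 6.79 and 6.06 to 6.42 in the tumors, against 6.68 to 6.91 in control. The part of these cells in the ligand differences was not tested, and on this scale no marker has a true 0.

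The 5 neutrophil-attracting CXC ligands (Cxcl1, Cxcl2, Cxcl3, Cxcl5 and Cxcl15) were near control. Cxcl1 rose by 0.46 ± 0.17 (adjusted p = 0.0422) in PDGF+p53-/-RBPjk-/- tumors. That call ended without control replicate 2 or 4, without PDGF+p53-/-RBPjk-/- replicate 2 or 4 and without PDGF+p53-/- replicate 1, with an adjusted p of 0.0501 to 0.165. It ended under 10 of 26 alternatives, housekeeping centring (0.228) and array weights (0.0877) among them. The group's median difference was 0.06, 0.25 and 0.12 in the 3 tumor types. None of 10 neutrophil markers was called in any tumor type against control. Among protein-coding genes, Cxcl3, Cxcl15, Cxcl1 and Cxcl2 lie next to each other in that order on chromosome 5. The promoters of Cxcl1, Cxcl2 and Cxcl3 share the same 11 bases, a pair of overlapping NF-kappaB matches, and that of Cxcl15 has none. The matches are shown in capitals with 10 bases on either side (RefSeq, GRCm38.p6, plus strand, 5′ to 3′). The stretches are chr5:90891164-90891194, chr5:90903792-90903822 and chr5:90786018-90786048, and the capitals begin 71, 97 and 73 bases upstream of the start.
Cxcl1: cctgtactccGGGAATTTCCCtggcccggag
Cxcl2: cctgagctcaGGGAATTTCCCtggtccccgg
Cxcl3: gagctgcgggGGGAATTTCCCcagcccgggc

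The interferon-induced CXC ligands Cxcl9, Cxcl10 and Cxcl11, which bind Cxcr3 on T and NK cells, varied widely between arrays of 1 tumor type, and none of them was called. They are described array by array because of that spread, a choice made after their values were seen. Cxcl10 gave 8.71, 5.93, 7.55 and 10.76 in PDGF+p53-/- arrays, 9.35, 7.40, 6.31 and 8.25 in PDGF+p53-/-RBPjk-/- arrays and 6.01, 12.09, 7.08 and 7.46 in p53-/-RBPjk-/- arrays. Control arrays gave 6.25, 5.86, 6.72 and 5.31. Each tumor type thus had at least 1 array far above control and at least 1 within its range. The mean difference was 2.20 ± 1.08 (adjusted p = 0.14), 1.79 ± 1.08 (0.232) and 2.12 ± 1.08 (0.142), with 95% intervals of -0.07 to 4.48, -0.48 to 4.07 and -0.15 to 4.40. Without p53-/-RBPjk-/- replicate 2 the first of these passed at the same 2.20 (adjusted p = 0.0389).

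Cxcl9 was highest in PDGF+p53-/- replicate 4 at 9.98, PDGF+p53-/-RBPjk-/- replicate 1 at 8.73 and PDGF+p53-/- replicate 1 at 8.07, against 4.88 to 6.17 in control arrays. It was 7.14 in p53-/-RBPjk-/- replicate 2, the array with the highest Cxcl10, so the order of arrays differs between both ligands. Cxcl9 differed from control by 1.94 ± 0.96 (adjusted p = 0.144), 0.85 ± 0.96 (0.563) and 0.44 ± 0.96 (0.771). Without PDGF+p53-/- replicate 2 its first difference was 2.81 (0.0281). Cxcl11 reached 7.05 in p53-/-RBPjk-/- replicate 2, and the other arrays of that type lay between 4.90 and 5.20. The Cxcl11 differences were 0.42 ± 0.39 (0.467), 0.36 ± 0.39 (0.536) and 0.44 ± 0.39 (0.419).

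Other interferon-response genes were high in the same arrays. The mean of 11 such genes was 8.83 in p53-/-RBPjk-/- replicate 2 and 8.12 in PDGF+p53-/- replicate 4, the arrays with the highest Cxcl10, and over all tumor arrays it ran from 6.07 to 8.83, against 5.70 to 6.26 in control arrays. Of these 11 genes 4, 3 and 4 rose in the 3 types and none fell, among them Usp18, an interferon-induced protease, at 1.71, 1.57 and 1.91. T and NK cell markers gave no call in any comparison with control (0 of 14 genes by limma, with 0, 1 and 1 at an unadjusted p under 0.05). Their mean was 5.51 in PDGF+p53-/- replicate 4, the array with the highest Cxcl9, against 4.60 to 4.81 in control arrays. That mean was 4.71 in p53-/-RBPjk-/- replicate 2, within the control range. The part of lymphocytes in these values was not tested.

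**Figure D3:**
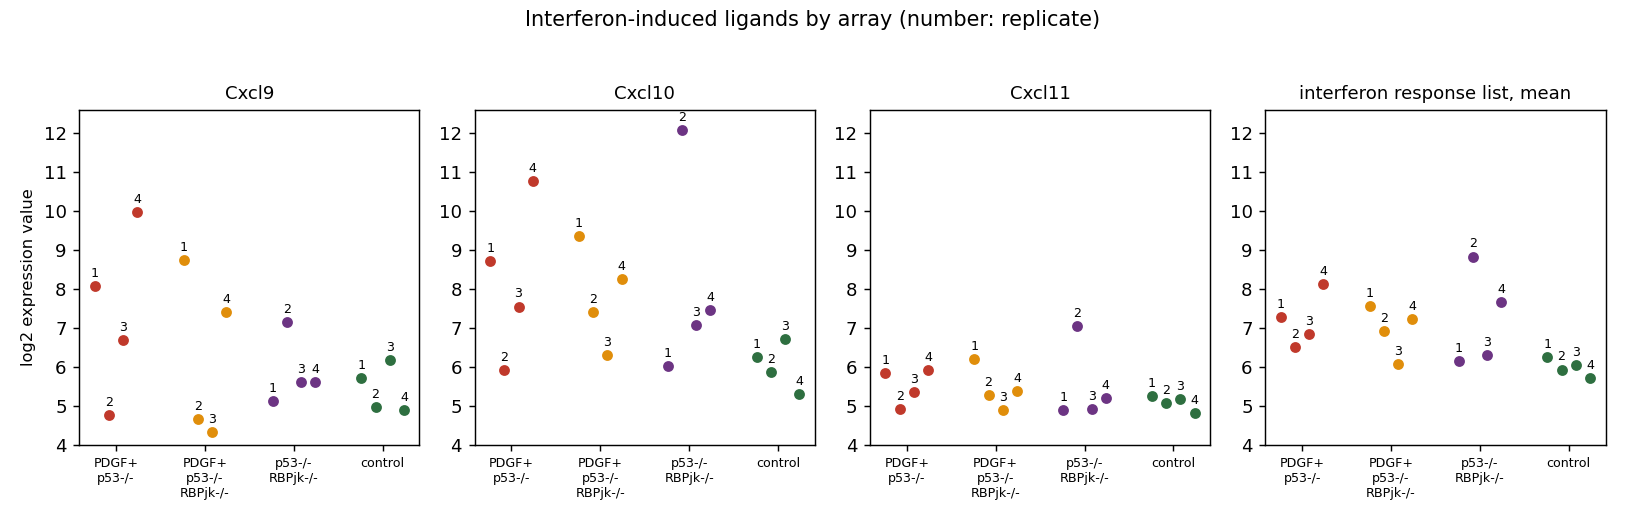
Log2 expression value of Cxcl9, Cxcl10 and Cxcl11 and the mean of 11 interferon-response genes in each array (dots, with the replicate number above), for the 3 tumor types and control. Replicate 2 of the p53-/-RBPjk-/- tumors is highest for Cxcl10 (12.09), Cxcl11 (7.05) and the list (8.83), while replicate 4 of the PDGF+p53-/- tumors is highest for Cxcl9 (9.98).

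The promoters of Cxcl10 and Cxcl9 are shown because both genes vary by array in different orders. The windows searched are the 250 bases upstream of a start in RefSeq (GRCm38.p6), of which 38 windows belong to 36 of the 50 genes. Both strands were searched for the NF-kappaB consensus and for the interferon-stimulated element, GAAA and GAAA with any 2 bases between them. The NF-kappaB consensus is in 8 of these 38 windows (21.05%) and in 3.90% of 32851 windows of all genes, and the interferon element in 3 (7.89%) and in 2.98%. NF-kappaB matches are in Ccl9, Ccl20, Ccr3, Ccr6, Cxcl1, Cxcl2, Cxcl3 and Cxcl10, and interferon matches in Ccl19, Cxcl10 and Cxcl14. Of these genes, Cxcl1 alone was called in a comparison, but 11 of the 17 called genes have a window, and the promoters of Ccl2, Ccl5, Ccl7, Ccl11, Cxcl16 and Cxcl17 were not analysed here. A match describes letters in this window and is not evidence of binding. In Cxcl10 (chr5:92348890-92349139, minus strand) the capitals mark first the interferon element and then a pair of NF-kappaB matches, and these do not overlap. Cxcl9 (chr5:92328080-92328329, minus strand) has no match and no capitals.
Cxcl10: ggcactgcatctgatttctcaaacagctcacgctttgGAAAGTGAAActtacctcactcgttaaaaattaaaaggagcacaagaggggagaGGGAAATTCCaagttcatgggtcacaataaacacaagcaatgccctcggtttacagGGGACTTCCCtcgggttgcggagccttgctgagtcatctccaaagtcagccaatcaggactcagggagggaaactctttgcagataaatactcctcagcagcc
Cxcl9: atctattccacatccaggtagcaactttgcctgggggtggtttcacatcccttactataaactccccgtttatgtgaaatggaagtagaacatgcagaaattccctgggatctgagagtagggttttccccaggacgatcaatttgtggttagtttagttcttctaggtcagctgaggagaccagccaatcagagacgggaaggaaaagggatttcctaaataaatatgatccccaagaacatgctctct

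Among the 15 homeostatic and other ligands, 2, 2 and 2 rose and 4, 3 and 3 fell in the 3 tumor types. Over all genes 13.6%, 15.7% and 16.4% were called higher and 17.6%, 17.9% and 20.4% lower. Most of these counts thus lie near the share of all genes. Cx3cl1 (fractalkine), the membrane-bound ligand that neurons display to microglia, fell most. It gave 6.65, 6.91, 7.43 and 7.19 in PDGF+p53-/- arrays, 6.81, 6.74, 7.27 and 6.26 in PDGF+p53-/-RBPjk-/- arrays and 6.12, 6.17, 6.18 and 5.84 in p53-/-RBPjk-/- arrays. Control arrays gave 8.44, 8.73, 8.99 and 8.73, and no tumor array overlapped them. The fall was -1.68 ± 0.20 (adjusted p = 3.76e-06), -1.96 ± 0.20 (6.24e-07) and -2.65 ± 0.20 (1.52e-08), which is 3.20-fold, 3.88-fold and 6.26-fold. Neuron markers fell beside it, 12 of 12 in each type, with a median of -3.12, -3.20 and -3.79, and their part in the Cx3cl1 difference was not tested. Without PDGF+p53-/- replicate 3, the array with the highest neuron mean among tumors, the first Cx3cl1 difference was -1.81 (2.17e-06).

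Cx3cr1, the receptor of Cx3cl1 on microglia and no member of the family as chosen here, averaged 7.89 ± 0.28 in PDGF+p53-/-, 7.61 ± 0.22 in PDGF+p53-/-RBPjk-/- and 7.09 ± 0.60 in p53-/-RBPjk-/- tumors, against 8.06 ± 0.23 in control (SD, n = 4 each). It fell by 0.97 in p53-/-RBPjk-/- tumors (adjusted p = 0.00268), and its differences of -0.17 (0.641) and -0.46 (0.148) in the PDGF types did not pass.

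Ccl17 and Ccl22, the ligands of Ccr4 on T cells, flank Cx3cl1 among the protein-coding genes of chromosome 8 and moved in opposite directions. Ccl17 gave 6.47, 6.54, 6.15 and 6.50 in PDGF+p53-/- arrays, 6.60, 5.88, 6.24 and 5.66 in PDGF+p53-/-RBPjk-/- arrays and 5.26, 5.67, 5.96 and 5.73 in p53-/-RBPjk-/- arrays. Control arrays gave 7.11, 8.25, 7.69 and 6.74, above every tumor array but with the widest spread of the 4 groups. The fall was -1.03 ± 0.26 (adjusted p = 0.00571), -1.35 ± 0.26 (0.000598) and -1.79 ± 0.26 (2.92e-05). Ccl22 was dim, with a mean of 4.88 over all arrays. It rose by 0.50 ± 0.15 (0.0152) and 0.56 ± 0.15 (0.00687) in the PDGF types. In p53-/-RBPjk-/- tumors it differed by 0.37 ± 0.15 (0.0615), and its arrays there also lay above control. The first of these ended without PDGF+p53-/- replicate 4 (0.35, 0.0588), and the last passed without that array (0.0238).

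Cxcl12, the ligand of Cxcr4 that endothelium, meninges and some neurons make, was at 5.46, 5.41, 5.95 and 5.50 in PDGF+p53-/- arrays. It gave 5.41, 5.29, 5.68 and 5.69 in PDGF+p53-/-RBPjk-/- arrays and 5.14, 5.45, 5.83 and 5.32 in p53-/-RBPjk-/- arrays, against 6.28, 6.24, 6.59 and 6.71 in control arrays. All tumor arrays lay below control. The fall was -0.88 ± 0.17 (adjusted p = 0.000515), -0.94 ± 0.17 (0.000247) and -1.02 ± 0.17 (8.46e-05), so the 3 types lay close together. Of 11 endothelial markers 0, 0 and 1 rose and 2, 2 and 3 fell, with a mean of 6.34 to 6.73, 6.37 to 6.70 and 6.28 to 6.68 in the tumors, against 6.71 to 6.86 in control. Whether endothelium or neurons carry the Cxcl12 difference was not tested.

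Cxcl16, a membrane-bound ligand of Cxcr6, rose by 0.78 ± 0.23 (adjusted p = 0.0146), 0.75 ± 0.23 (0.0167) and 0.85 ± 0.23 (0.00689), with all tumor arrays above control. The first call ended without PDGF+p53-/- replicate 1 (0.061) or 4 (0.0592), and the second without PDGF+p53-/-RBPjk-/- replicate 1 (0.0511). Ccl25, the ligand of the T cell receptor Ccr9, was at 8.71, 8.51, 8.95 and 7.31 in p53-/-RBPjk-/- arrays. It gave 8.27, 7.92, 7.18 and 7.89 in PDGF+p53-/- arrays and 7.69, 7.88, 7.66 and 8.04 in PDGF+p53-/-RBPjk-/- arrays, against 7.39, 7.66, 7.06 and 7.17 in control arrays. Replicate 4 of the p53-/-RBPjk-/- tumors lay within the control range and the other 3 well above it. Ccl25 rose by 1.05 ± 0.28 (0.00649) in p53-/-RBPjk-/- tumors, and the differences of 0.49 (0.213) and 0.50 (0.202) in PDGF+p53-/- and PDGF+p53-/-RBPjk-/- tumors did not pass. Cxcl17, a mucosal ligand, fell by 0.36 ± 0.12 (0.0255) in PDGF+p53-/- tumors. That call ended without control replicate 2, 3 or 4 or PDGF+p53-/- replicate 2 or 3 (0.0504 to 0.0765).

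No receptor was called lower against control. Of 10 CC receptors 1, 0 and 0 rose in the 3 tumor types, and of 7 CXC and XC receptors 2, 1 and 1 rose. Over all genes 13.6%, 15.7% and 16.4% were called higher and 17.6%, 17.9% and 20.4% lower. Cxcr4, the receptor of Cxcl12 on progenitors, leukocytes and many tumor cells, gave 7.56, 7.32, 6.67 and 6.96 in PDGF+p53-/- arrays and 7.10, 7.20, 6.84 and 7.04 in PDGF+p53-/-RBPjk-/- arrays. Its p53-/-RBPjk-/- arrays gave 7.25, 7.50, 7.80 and 7.18, against 5.96, 5.45, 6.09 and 6.23 in control arrays. Every tumor array lay above control, with PDGF+p53-/- replicate 3 lowest among them. Cxcr4 rose by 1.20 ± 0.20 (adjusted p = 0.000138), 1.11 ± 0.20 (0.000244) and 1.50 ± 0.20 (8.48e-06), or 2.30-fold, 2.16-fold and 2.83-fold, opposite in direction to its ligand Cxcl12. Without PDGF+p53-/- replicate 3 the first rise was 1.35 (4.02e-05).

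Ccr2, the receptor of Ccl2, Ccl7 and Ccl12 on inflammatory monocytes, gave 6.48, 5.01, 4.80 and 7.64 in PDGF+p53-/- arrays and 6.87, 6.66, 5.61 and 5.58 in PDGF+p53-/-RBPjk-/- arrays. Its p53-/-RBPjk-/- arrays gave 4.71, 6.29, 6.22 and 5.34, and in control arrays 5.19, 4.90, 5.03 and 4.94. All 4 PDGF+p53-/-RBPjk-/- arrays lay above control, and in each other tumor type some arrays lay above the control range and at least 1 lay below it. Ccr2 did not pass in any type, with differences of 0.97 ± 0.50 (adjusted p = 0.167), 1.16 ± 0.50 (0.0877) and 0.63 ± 0.50 (0.373). The first passed without PDGF+p53-/- replicate 3 (1.36, 0.0444), and the second without PDGF+p53-/- replicate 4 (0.031) at the same 1.16. Ccr9 rose by 0.53 ± 0.18 (0.0347) in PDGF+p53-/- tumors. The call ended under 11 alternatives, among them those without control replicate 2, 3 or 4 or any PDGF+p53-/- array (0.0516 to 0.13). The mean of Ccr9 over all arrays was only 4.56, and no PDGF+p53-/- array lay above the highest control array, at 4.97. Cxcr6 rose by 0.43 ± 0.14 (0.0285) in the same tumors. Its call ended under 5 alternatives, among them those without control replicate 1 or 4 or PDGF+p53-/- replicate 2 (0.0641 to 0.111).

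Between tumor types the differences were few. PDGF+p53-/-RBPjk-/- and PDGF+p53-/- tumors, which differ by the loss of RBPjk under the same virus, gave no call among the 50 genes by limma, with 1 (Ccl5, -0.85) at an unadjusted p under 0.05. Over all genes 0.0201% were called (0.015% higher, 0.00502% lower), which is 4 genes. Ccl2 differed by 0.36 ± 0.27 (adjusted p = 0.97) with a 95% interval of -0.20 to 0.92, Ccl11 by 0.28 ± 0.18 (0.961), Cx3cl1 by -0.28 ± 0.20 (0.968) and Ccl17 by -0.32 ± 0.26 (0.98). Such intervals leave room for differences, so the p-values do not show that the types are alike.

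Against PDGF+p53-/-RBPjk-/- tumors, p53-/-RBPjk-/- tumors had 2 of the 50 genes lower and none higher, where 3.27% of all genes were called (0.637% higher, 2.63% lower). Both were ligands of the Ccl2 row. Ccl11 averaged 6.29 ± 0.26 in p53-/-RBPjk-/- and 7.37 ± 0.07 in PDGF+p53-/-RBPjk-/- tumors (SD, n = 4 each), a difference of -1.08 ± 0.18 (adjusted p = 0.00426), and Ccl12 averaged 7.35 ± 0.51 and 9.18 ± 0.48 in these types, a difference of -1.83 ± 0.41 (0.0218) or 3.56-fold. For both genes the arrays did not overlap. The Ccl12 call ended without PDGF+p53-/-RBPjk-/- replicate 1 (-1.67, 0.0746) or 3 (-1.92, 0.0544). Ccl2 itself differed by -0.92 ± 0.27 (0.0684) and passed without PDGF+p53-/-RBPjk-/- replicate 2 (-1.14, 0.0387). Cx3cl1 at -0.69 (0.0627) and Cxcr6 at -0.52 (0.0563) had arrays that did not overlap but did not pass. Cx3cl1 passed without PDGF+p53-/- replicate 3 (-0.69, 0.0483) or PDGF+p53-/-RBPjk-/- replicate 4 (-0.86, 0.0169), and Cxcr6 without PDGF+p53-/- replicate 2 (0.0314).

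Against PDGF+p53-/- tumors, p53-/-RBPjk-/- tumors had 4 genes lower and none higher, where 5.54% of all genes were called (1.93% higher, 3.61% lower). Ccl11 averaged 6.29 ± 0.26 in p53-/-RBPjk-/- and 7.09 ± 0.45 in PDGF+p53-/- tumors (-0.80 ± 0.18, adjusted p = 0.0158), with overlap of arrays. Ccl12 averaged 7.35 ± 0.51 and 9.06 ± 0.51 in these types (-1.71 ± 0.41, 0.0203), Cx3cl1 6.08 ± 0.16 and 7.05 ± 0.34 (-0.97 ± 0.20, 0.00864) and Cxcr6 5.06 ± 0.14 and 5.69 ± 0.27 (-0.63 ± 0.14, 0.0162), each with no overlap. The Ccl12 call ended without replicate 4 of PDGF+p53-/- (-1.47, 0.0627) or replicate 1 of p53-/-RBPjk-/- tumors (-1.47, 0.0532), and Cxcr6 without PDGF+p53-/- replicate 2 (-0.50, 0.0589) or p53-/-RBPjk-/- replicate 3 (-0.57, 0.0512). Ccl2 at -0.57 (0.256), Ccl17 at -0.76 (0.106) and Cxcr4 at 0.30 (0.47) did not pass. Ccl25 differed by 0.55 ± 0.28 (0.348) from PDGF+p53-/-RBPjk-/- and by 0.56 ± 0.28 (0.306) from PDGF+p53-/- tumors. Without p53-/-RBPjk-/- replicate 4 it passed as higher against both (0.91, 0.0374 and 0.91, 0.0258). Both comparisons share the p53-/-RBPjk-/- arrays.

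The p53-/-RBPjk-/- arrays all carry high Xist, and a sex term in the fit changed these calls. With it Ccl12 stood at -1.43 (adjusted p = 0.234) against PDGF+p53-/-RBPjk-/- and at -1.31 (0.216) against PDGF+p53-/- tumors, Cx3cl1 at -0.92 (0.0875) and Cxcr6 at -0.39 (0.225) against PDGF+p53-/- tumors, and none of these passed. Ccl11 passed against both PDGF types with the sex term, but not against control (0.35, 0.184). Among arrays with high Xist alone, Ccl12 was 6.65 to 7.87 in the 4 p53-/-RBPjk-/- arrays, against 9.05 in the 1 PDGF+p53-/- array and 8.92 in the 1 PDGF+p53-/-RBPjk-/- array, so the direction was the same there. For Ccl11 the same arrays gave 5.99 to 6.58 in p53-/-RBPjk-/- tumors, against 7.56 and 7.44 in PDGF+p53-/- and PDGF+p53-/-RBPjk-/- tumors. Cx3cl1 was 5.84 to 6.18 in the high-Xist p53-/-RBPjk-/- arrays, against 6.65 in the PDGF+p53-/- and 7.27 in the PDGF+p53-/-RBPjk-/- array. Cxcr6 was 4.87 to 5.20 in the high-Xist p53-/-RBPjk-/- arrays, against 5.44 in the PDGF+p53-/- and 5.31 in the PDGF+p53-/-RBPjk-/- array. Cxcr6 was also lower in high-Xist than in low-Xist arrays of each other group, with no overlap. It was 5.44 in the high-Xist array and 5.61 to 6.06 in the low-Xist arrays of PDGF+p53-/- tumors, 5.31 and 5.64 to 5.69 in those of PDGF+p53-/-RBPjk-/- tumors, and 5.03 to 5.20 and 5.33 to 5.46 in those of control. The part of sex in the Cxcr6 difference between tumor types was not tested further. No p53-/-RBPjk-/- array has low Xist, so the difference cannot be given within that pattern.

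**Figure D4:**
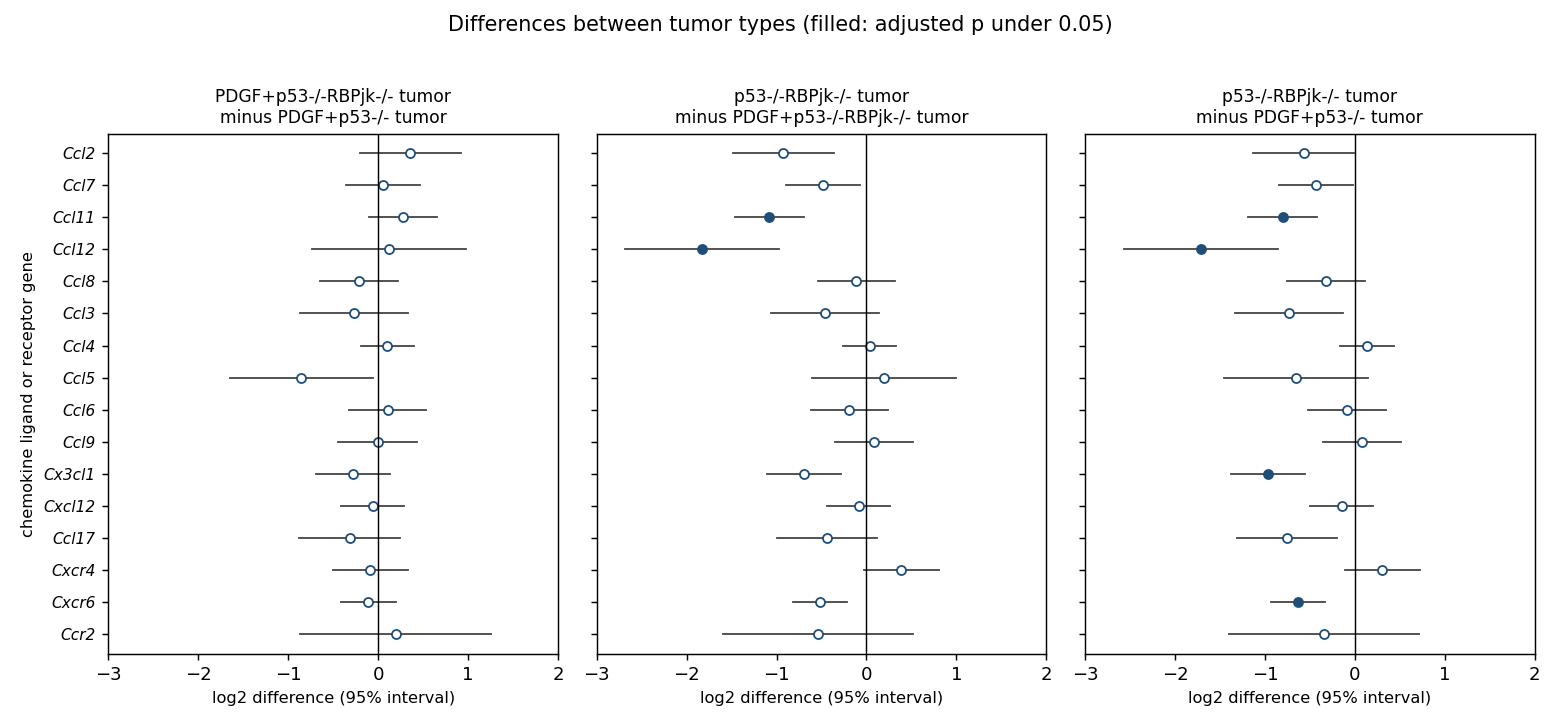
Log2 difference between tumor types for 16 chemokine genes, with 95% intervals as lines and filled circles where the adjusted p is under 0.05, for PDGF+p53-/-RBPjk-/- minus PDGF+p53-/- tumors (left), p53-/-RBPjk-/- minus PDGF+p53-/-RBPjk-/- tumors (middle) and p53-/-RBPjk-/- minus PDGF+p53-/- tumors (right). No circle is filled on the left, Ccl11 and Ccl12 are filled in the middle and on the right, and Cx3cl1 and Cxcr6 on the right.

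Genes around the chemokine system were counted on lists of their own. For comparison, 13.6%, 15.7% and 16.4% of all genes were called higher in the 3 tumor types, and 17.6%, 17.9% and 20.4% lower. Of 10 other chemokine genes (decoy receptors, Cx3cr1 and further ligands) 1, 1 and 1 rose and 2, 2 and 3 fell. Ackr1, a decoy receptor of endothelium and red cells, fell, with differences of -2.14, -1.94 and -2.42 in the 3 tumor types (adjusted p = 1.27e-07, 3.07e-07 and 1.74e-08), and Ackr4, a decoy for Ccl19 and Ccl25, fell, with differences of -0.71, -0.83 and -1.10. Cklf, a chemokine-like factor, rose by 1.06, 0.87 and 1.16. Of 18 inducers of chemokine genes 2, 3 and 3 rose and none fell, with a median of 0.30, 0.34 and 0.14. The inducers that rose lie near the share of all genes called higher, and Tnf, Ifng and Nfkbia were called in no comparison. The interferon-driven factor Irf1 rose by 1.52 in PDGF+p53-/- tumors (0.016), the cytokine Il1b by 0.87 in PDGF+p53-/-RBPjk-/- tumors (0.032) and Irf7 by 1.02 in p53-/-RBPjk-/- tumors (0.00129). Of 19 signaling genes below the receptors 2, 2 and 2 rose and 6, 6 and 6 fell. Ptk2b, a kinase that neurons also use, fell, with differences of -2.57, -2.85 and -3.14, beside the fall of all 12 neuron markers given above.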

How the data were processed

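Total RNA of the 16 samples was hybridised to 1-colour Affymetrix arrays. The values are log2 expression values as deposited by the authors, made per the submitters' processing notes by RMA with oligo. RMA corrects background, equalises the value distributions of the arrays and summarises probes to probe sets. Both versions, and the build behind the annotation, are not given in those sources. Array medians lay between 5.97 and 6.06, and values between 1.2 and 14.1. The table holds no detection call. Precision is limited by having 4 arrays a group.

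Of 35556 probe sets, 21789 carry 1 gene symbol in the platform annotation, which can be old, 1621 carry several and 12146 are not listed there. Probe sets with several symbols, 7 of them for chemokine genes, name no gene. Where a gene has several probe sets (999 genes, Ccl19 and Ccl25 among the chemokine genes), the brightest by its mean of all arrays was used, leaving 19938 genes.

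All 16 arrays entered 1 limma fit (lmFit and eBayes, version 3.58.1 under R 4.3.3) with 4 group means and no covariate. Each of 6 comparisons was tested two-sided, with Benjamini-Hochberg adjustment over all 19938 genes, and a gene was called at an adjusted p under 0.05. Values, SDs and figures came from pandas 2.3.3, matplotlib 3.10.9 and numpy 2.4.6 under Python 3.11.15, and the fit was tested on simulated data. The 50 genes and all lists were chosen with earlier results of these data known. Values in every array are given for Ccl2, Ccr2, Cxcl12, Cxcr4 and Cx3cl1 and for genes called with a difference of at least 1. From a marker or pathway list, called genes with the largest differences were named. The alternatives were 2 other scalings, a filter on genes with a mean under 5, other treatments of several probe sets, other variance models, 2 groups at a time, replicate number or sex as a term, and leaving out each array in turn. Promoter windows are 250 bases upstream of RefSeq starts (GRCm38.p6). RefSeq proteins were not used here.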

Additional observations from a re-analysis of the deposited data

Results flagged for a closer look

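In 14 chemokine genes, 56 groups of 4 arrays were looked at for an array far from the other 3. There were 3 found, about the number that chance gives at 1 in 20. Of the 14 genes, Cxcl9, Cxcl10 and Cxcl11 were chosen for their spread after their values were seen. Ccl3 was 8.43 in PDGF+p53-/- replicate 4, with the other 3 arrays between 7.10 and 7.22. Cxcl12 was 5.95 in PDGF+p53-/- replicate 3, with the others between 5.41 and 5.50. That array also had the highest neuron mean among the tumors. Cxcl11 was 7.05 in p53-/-RBPjk-/- replicate 2, with the others between 4.90 and 5.20. That array also had the highest Cxcl10.

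The effect against control differed between tumor types for 4 genes, by limma's test of the difference between the types. In p53-/-RBPjk-/- minus PDGF+p53-/-RBPjk-/- tumors, Ccl11 differed by -1.08 (adjusted p = 0.00426) and Ccl12 by -1.83 (0.0218). In p53-/-RBPjk-/- minus PDGF+p53-/- tumors, Ccl11 differed by -0.80 (0.0158), Ccl12 by -1.71 (0.0203), Cx3cl1 by -0.97 (0.00864) and Cxcr6 by -0.63 (0.0162). All 4 p53-/-RBPjk-/- arrays carry high Xist, and of each PDGF type 1 of 4 does.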

How the results depend on the processing

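Values were recomputed under 26 alternatives, of which 16 left out 1 array each. Ccl22 and Ccr9 have a mean under 5 and were not tested in the alternative that left out such genes. Of the 41 calls of chemokine genes over the 6 comparisons, 24 passed under every alternative that tested the gene. Among them were those of Ccl2, Cx3cl1, Ccl17, Cxcl12 and Cxcr4 against control in each tumor type. The number of genes called moved by over 1.5 times between tumor types only. In p53-/-RBPjk-/- minus PDGF+p53-/-RBPjk-/- tumors (2 genes) it was 4 with array weights, 1 with every probe set tested and 1 with sex as a term. In p53-/-RBPjk-/- minus PDGF+p53-/- tumors (4 genes) it was 2 with only these groups in the fit and 1 with a sex term. Leaving out 1 array gave 10 to 16, 9 to 15 and 7 to 10 genes in PDGF+p53-/-, PDGF+p53-/-RBPjk-/- and p53-/-RBPjk-/- tumors against control. It gave 0 to 0, 1 to 3 and 3 to 5 genes in PDGF+p53-/-RBPjk-/- minus PDGF+p53-/-, p53-/-RBPjk-/- minus PDGF+p53-/-RBPjk-/- and p53-/-RBPjk-/- minus PDGF+p53-/- tumors. The count of 1 came without PDGF+p53-/-RBPjk-/- replicate 1 or 3. The only reported value to change sign was that of Cxcl11 in p53-/-RBPjk-/- tumors against control, at -0.07 (adjusted p = 0.878) without p53-/-RBPjk-/- replicate 2, the array with its highest value, and at up to 0.64 without another array.

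Housekeeping centring (10 genes, arrays shifted by -0.24 to 0.18) ended, against control, the calls of Ccl12 (adjusted p = 0.0503), Ccl22 (0.0596), Ccl7 (0.063), Ccr9 (0.141) and Cxcr6 (0.108) in PDGF+p53-/- tumors, Ccl7 (0.0539), Cxcl1 (0.228) and Cxcl16 (0.0506) in PDGF+p53-/-RBPjk-/- tumors and Ccl11 (0.0826) in p53-/-RBPjk-/- tumors. It also ended Ccl11 in p53-/-RBPjk-/- minus PDGF+p53-/- tumors (0.0536). With only the 2 groups compared in the fit, Ccr2 (1.16, 0.004) and Cxcl10 (1.79, 0.0152) passed in PDGF+p53-/-RBPjk-/- tumors and Ccl5 (0.87, 0.0228) in p53-/-RBPjk-/- tumors, each against control. The cause of these changes was not tested.

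The arrays carry replicate numbers 1 to 4 in each group. The deviations of 24 pairs of arrays with the same number correlated between -0.121 and 0.182, over 0.1 in 7. Pairs with different numbers were not computed beside them. Whether arrays with the same number share more than that number was therefore not tested. With the replicate number as a block, 14, 12, 10, 0, 3 and 4 genes were called, in the order of comparisons used for the counts without 1 array. Against control that block ended Ccl12 in PDGF+p53-/- tumors (0.0521), and Cx3cl1 passed with it in p53-/-RBPjk-/- minus PDGF+p53-/-RBPjk-/- tumors (-0.69, 0.0311). With 4 arrays a group and no detection call, differences under about 0.41 and the presence of dim transcripts were mostly beyond reach. Some larger differences did not pass either, because calls were adjusted over all genes.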

Other observations

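The 9 genes on the list of dendritic cell markers, antigen presentation genes among them, moved in part. In PDGF+p53-/- tumors 3 rose and 1 fell, and in each RBPjk-/- type 2 rose and 1 fell. H2-Aa, a class II antigen-presenting protein, averaged 7.81 in PDGF+p53-/- tumors and 5.95 in control (difference 1.86, adjusted p = 0.0335). Cd74, its chaperone, averaged 6.92 in PDGF+p53-/- tumors and 5.02 in control (1.90, 0.0495). Flt3, a receptor of dendritic precursors, fell, with differences of -1.18, -1.11 and -1.10 in PDGF+p53-/-, PDGF+p53-/-RBPjk-/- and p53-/-RBPjk-/- tumors. The mean of the list was 5.01 to 6.43, 4.94 to 5.64 and 5.13 to 5.80 in the 3 types, against 5.12 to 5.31 in control. Gpnmb, a glycoprotein of lipid-laden macrophages, averaged 9.67 in p53-/-RBPjk-/- and 7.42 in PDGF+p53-/- tumors (2.25, 0.0148), opposite in direction to Ccl11 and Ccl12 in the same comparison.

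The 7 probe sets that carry several chemokine symbols cannot be assigned to 1 gene. The 4 for Ccl21 copies hold identical values, 6.32 to 7.02 in the tumors and 7.09 to 7.36 in control. Of 3 for Ccl27 copies, 2 hold identical values, 5.99 to 7.93 in the tumors and 8.64 to 8.88 in control. The other gave 6.27 to 8.49 in the tumors and 9.57 to 9.66 in control. These values were not tested.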
